A study of Mus musculus with 12 samples.

Results

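The genes described here encode the coactivators YAP (Yap1) and TAZ (Wwtr1), their DNA-binding partner TEAD1 (Tead1), the kinases LATS1 and LATS2 (Lats1, Lats2), the angiomotin-like proteins AMOTL1 and AMOTL2 (Amotl1, Amotl2), and the secreted matricellular proteins CYR61 and CTGF (Cyr61 and Ctgf, also known as Ccn1 and Ccn2). They were taken by name from the deposited count table, where all 9 were present among 12208 gene rows, and all 9 passed the filter on low counts that left 12027 tested genes. RNA was measured in 393P, a mouse lung cancer line labelled epithelial and non-metastatic, in 4 versions: 393P with Zeb1_mimetic (mimetic), with Zeb1_deficient (deficient), with Zeb1_WT (WT) and with GFP_Vector (vector). All were grown untreated in the same medium. The mimetic and deficient forms are read here as acetylation mutants of Zeb1, the zinc-finger repressor that drives epithelial-mesenchymal transition, because the series title concerns its acetylation. Each version is 1 line with 3 libraries labelled as biological replicates, whereas the design text speaks of 2 replicates per sample. The labels do not say whether the libraries of a line came from separate cultures, so the spread behind each p-value may be technical, and the Zeb1 form and any other way in which 1 line differs from another cannot be told apart.

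Libraries were made with a 3' tag kit, so a count stands for a transcript end and does not grow with transcript length. Library totals were 24356697 to 27457818 counts in mimetic, 31010854 to 32950740 in deficient, 28402017 to 35773638 in WT and 33301106 to 39029599 in vector, and the described genes had 1026 to 9527 counts in a library. Zeb1 itself was at 214 to 236 CPM (a library's counts scaled to a common total with TMM factors, as edgeR defines it) in mimetic, 470 to 496 in deficient, 236 to 250 in WT and 29.3 to 34.4 in vector, and no mutation was read. Of 10 epithelial markers 7 were in the table, led by Krt8, Krt18 and Krt19 with Cldn7 under 1 CPM in every line, and their summed level was 5627 to 5797 CPM in mimetic, 7832 to 7957 in deficient, 4170 to 4323 in WT and 9169 to 10580 in vector. The 6 mesenchymal markers, led by Vim, summed to 5976 to 6184 CPM in mimetic and 5074 to 5311 in deficient. They summed to 6866 to 7176 CPM in WT and 5913 to 6481 in vector. Vim had a mean of 4764 CPM in mimetic, 3940 in deficient, 5871 in WT and 5356 in vector. Vim makes up most of the sum, and the 6 genes did not move together. Against vector, 3 were called higher and 2 lower in mimetic and in deficient (test given below). In WT 5 were called higher and 1 lower. Over all tested genes 59.5%, 58.2% and 64.6% were called in mimetic, deficient and WT. Sparc, for 1, had a mean of 410 CPM in mimetic, 312 in deficient, 430 in WT and 205 in vector. Of 5 blood cell markers only Cd68 was in the table, at a summed 2.12 to 8.43 CPM over all lines, and the others are not analysed here. The fibroblast markers Pdgfra and Col1a2 summed to at most 1.54 CPM in any library. The endothelial markers Kdr and Pecam1 summed to 2.61 to 3.11 CPM in mimetic, 5.37 to 7.15 in deficient, 0.736 to 1.14 in WT and 0.291 to 1.02 in vector. Vector replicate 3 and deficient replicate 3 differed from the other libraries of their lines more than other libraries did, with a mean chi-square per gene of 13.7 and 21.2 in vector and 17.1 and 23.6 in deficient, against 2.96 to 6.23 in all other pairs of a line. The mitochondrially encoded share of counts also differed between the lines, at 0.482% to 0.504% in mimetic, 0.698% to 0.722% in deficient, 0.396% to 0.426% in WT and 0.814% to 0.998% in vector. The share of ribosomal protein genes was 7.04% to 7.18% in mimetic, 6.23% to 6.56% in deficient, 7.58% to 7.65% in WT and 5.46% to 6.07% in vector. Both moved with every comparison of lines, and their part in the results was not tested.

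In the Hippo pathway, the LATS kinases phosphorylate YAP and TAZ and so keep them out of the nucleus, while angiomotin family proteins hold them at junctions and in the cytoplasm. Unphosphorylated YAP and TAZ enter the nucleus, bind TEAD factors and switch on genes such as Cyr61, Ctgf and Amotl2, and also Lats2, which closes a negative feedback loop. In human cancer cells ZEB1 has been described as a partner of YAP at shared target genes, and the pathway is known in lung epithelium for sensing cell density and shape. Control of YAP and TAZ is largely by phosphorylation and location, which RNA levels do not show.

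Cyr61 rose in all 3 Zeb1 lines and Amotl2 with it, Ctgf fell 2.76-fold in WT, and Amotl1 fell in all 3. The coactivators themselves moved little. Against vector, 8 of the 9 genes were called in mimetic (5 rose, 3 fell), 7 in deficient (5 rose, 2 fell) and 9 in WT (6 rose, 3 fell), at a Benjamini-Hochberg adjusted p under 0.05 over all tested genes in edgeR's quasi-likelihood test. Calls were common among all genes. In mimetic against vector 59.5% of tested genes were called, 28.6% higher and 30.9% lower, and the share of calls that were higher, 48%, became 59.1% with scaling by library size only. In deficient against vector 58.2% were called, 28.4% higher and 29.8% lower, and the share of calls that were higher went from 48.9% to 55.5% with library size only. In WT against vector 64.6% were called, 31% higher and 33.6% lower, and that share went from 47.9% to 50.1%. Called changes of at least 2-fold numbered 1 of 9 in mimetic, 3 in deficient and 1 in WT, beside 9.36%, 8.54% and 12.4% of all tested genes, so the counts in mimetic and WT were near the share over all genes. The median log2 fold change of the 9 genes against vector was 0.14 in mimetic, 0.21 in deficient and 0.18 in WT, beside -0.0044, 0.0041 and -0.013 over all tested genes. In bulk RNA, fewer cells that express a gene and less RNA per cell cannot be told apart.

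**Figure D1:**
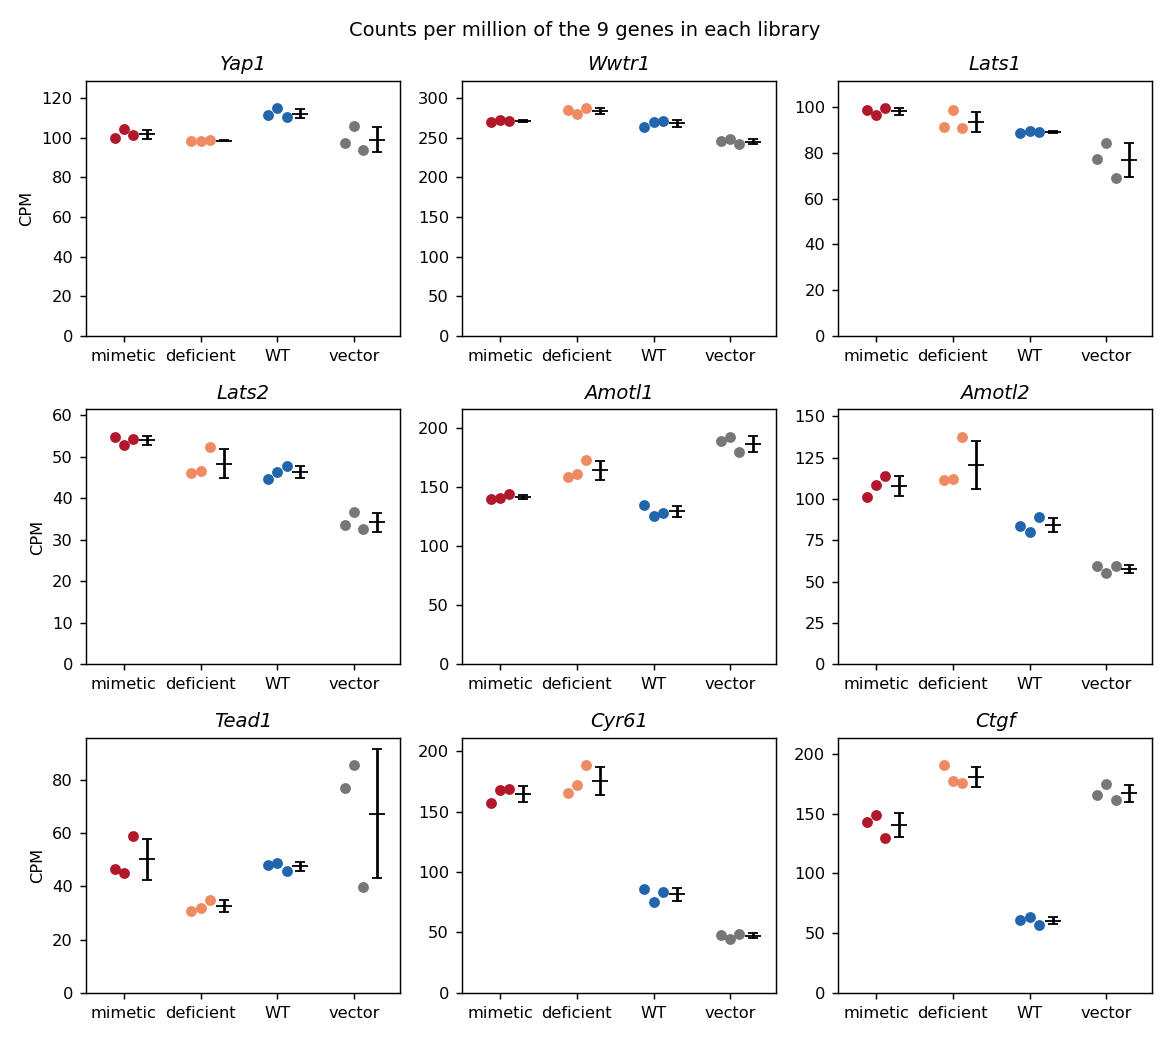
Each panel plots the level of 1 gene in CPM in every library of the mimetic, deficient, WT and vector lines (coloured points), with the mean and SD of 3 libraries in black beside them and the axis starting at 0. Cyr61 and Amotl2 stood above vector in all 9 Zeb1 libraries, Ctgf was low in the WT libraries, and the vector libraries were spread from 39.7 to 85.5 CPM for Tead1.

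Cyr61, a secreted matricellular protein and a textbook YAP target, had 157, 168 and 169 CPM in mimetic, 166, 172 and 188 in deficient, 85.7, 75.4 and 83.7 in WT, and 48.3, 44.8 and 48.6 in vector. All Zeb1 libraries were above all vector libraries, and the libraries of both mutants were above those of WT. The log2 fold change against vector was 1.80 in mimetic (SE 0.06, adjusted p = 1.1e-15), 1.89 in deficient (SE 0.06, adjusted p = 5.5e-16) and 0.79 in WT (SE 0.06, adjusted p = 3.6e-10). By size these ranked at the 95.9th, 96.7th and 81.8th percentile of all tested genes. Between the mutants the difference was -0.09 on the log2 scale (mimetic over deficient, SE 0.06, adjusted p = 0.24), and the ranges overlapped.

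The gene lies on chromosome 3 from 145646976 to 145649981 (GRCm38, GENCODE M21, minus strand). TEAD factors are known to bind the motif CATTCC. Promoter sequences were taken from RefSeq (GRCm38.p6), where 7 of the 9 genes had an entry, all but Ctgf and Tead1. The 250 bases before the start annotated in RefSeq for Cyr61 and Amotl2, both higher in all 3 Zeb1 lines, are shown in the direction of transcription with CATTCC in capitals. Cyr61 spans chr3:145649986-145650235 on the minus strand and Amotl2 chr9:102717554-102717803 on the plus strand.
Cyr61: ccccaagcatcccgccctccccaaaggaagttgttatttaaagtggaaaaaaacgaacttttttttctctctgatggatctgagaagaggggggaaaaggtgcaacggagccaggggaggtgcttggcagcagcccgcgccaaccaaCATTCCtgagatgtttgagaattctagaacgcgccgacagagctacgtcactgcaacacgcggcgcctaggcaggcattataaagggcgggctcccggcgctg
Amotl2: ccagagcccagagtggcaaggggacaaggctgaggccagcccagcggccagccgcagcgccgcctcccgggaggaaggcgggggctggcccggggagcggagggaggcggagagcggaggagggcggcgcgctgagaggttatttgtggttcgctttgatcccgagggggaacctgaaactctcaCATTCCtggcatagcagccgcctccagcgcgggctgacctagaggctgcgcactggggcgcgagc
The match begins 103 bases before the RefSeq start in Cyr61 and 65 bases before it in Amotl2. The windows of Amotl2, Amotl1 and Lats2 lie inside the GENCODE loci given below for these genes. For them, a match or its absence refers to the RefSeq start and not to the end of the GENCODE locus. Searched on both strands (CATTCC or GGAATG), the motif was in 12.6% of all 32851 RefSeq promoter windows of 250 bases. It was also in those of Yap1 and Wwtr1, read as GGAATG and shown here with 12 bases on either side, because these genes hold the motif and changed little. Wwtr1 was still called higher in all 3 Zeb1 lines. The motif was in none (0) of the windows of Lats1 and Lats2, which also rose in all 3, and of Amotl1, which fell in all 3.
Yap1: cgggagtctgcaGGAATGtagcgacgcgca
Wwtr1: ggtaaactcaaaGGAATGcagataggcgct
The Yap1 stretch is chr9:8004720-8004749 and the Wwtr1 stretch chr3:57576029-57576058, both on the minus strand. The E-box CAGGTG (or CACCTG), which ZEB1 is known to bind, was found in none (0) of the windows of Yap1, Wwtr1, Cyr61, Lats1, Amotl1 and Amotl2 and in 1 of 2 windows of Lats2, beside 17.2% of all windows. A match of letters is not a measured binding site.

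Ctgf, the other matricellular target, did not follow Cyr61. Its level was 143, 149 and 129 CPM in mimetic, 190.4, 177 and 175 in deficient, 60.7, 63.4 and 57.2 in WT, and 165, 175 and 161 in vector. The WT libraries were far below all others, the mimetic libraries were all below vector, and the deficient libraries were all just above vector. In WT the log2 fold change against vector was -1.47 (SE 0.06, adjusted p = 7e-15), a 2.76-fold lower level. In mimetic it was -0.25 (SE 0.05, adjusted p = 5e-04). In deficient it was 0.11 (SE 0.05, adjusted p = 0.076), which was called without vector replicate 2 (adjusted p = 0.039), with scaling by library size only (0.016), after keeping only genes with 5 CPM or more in 3 libraries (0.034) and with a replicate block (0.032). Ctgf lies on chromosome 10 from 24595442 to 24598683 (plus strand), and the antisense transcript Gm15270 overlaps it without reaching its 3' end.

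Since the libraries are scaled alike for both genes, the count of Cyr61 per count of Ctgf within a library needs no scaling. It was 1.18 ± 0.11 in mimetic, 0.972 ± 0.10 in deficient, 1.36 ± 0.15 in WT and 0.283 ± 0.024 in vector (SD, n = 3 each). All 9 Zeb1 libraries, at 0.87 to 1.46, stood above the vector libraries at 0.256 to 0.302. In each Zeb1 line the exact permutation test against vector gave p = 0.1 (two-sided, n = 3 each), the smallest that 3 against 3 allows, and 0.126 after adjustment over 24 ratio tests. Cyr61 was highest in the mutants and Ctgf lowest in WT, so both sides of the ratio differed between the Zeb1 lines. Ratios between these genes also carry how well each 3' end is captured, so only their differences between lines are read.

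**Figure D2:**
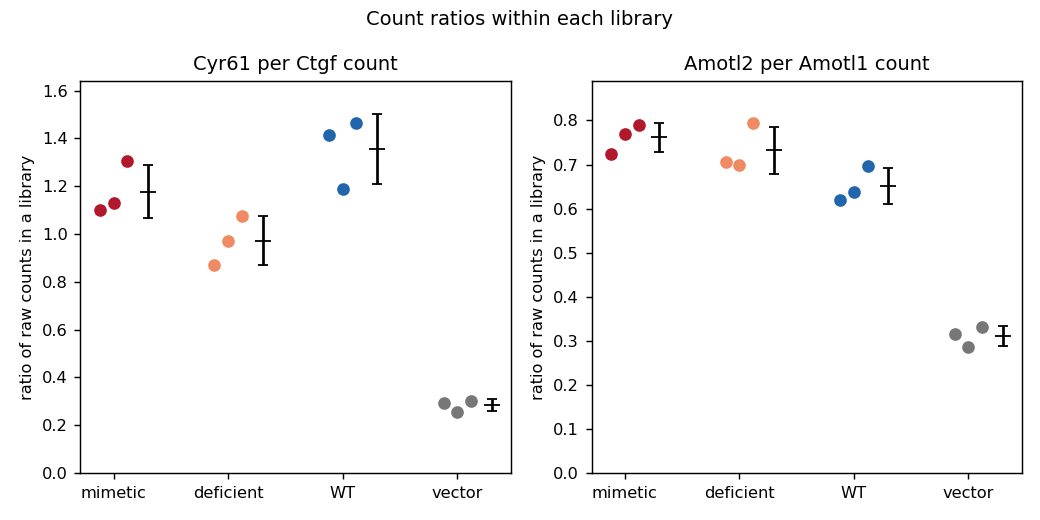
The count of Cyr61 per Ctgf (left) and of Amotl2 per Amotl1 (right) is plotted for each library of the mimetic, deficient, WT and vector lines, with the mean and SD of 3 libraries in black. Both ratios were lowest in the 3 vector libraries, at 0.256 to 0.302 and 0.287 to 0.331.

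The angiomotin-like proteins bind YAP and TAZ and hold them outside the nucleus, and Amotl2 is itself a YAP target. Amotl2 (chromosome 9, 102716672 to 102733418) had 102, 108 and 114 CPM in mimetic, 112, 112 and 138 in deficient, 83.5, 80.4 and 89.2 in WT, and 59.3, 55.2 and 59.4 in vector. No Zeb1 library overlapped vector, and deficient replicate 3 was the highest of all. The log2 fold change against vector was 0.90 in mimetic (SE 0.07, adjusted p = 9.1e-10), 1.06 in deficient (SE 0.07, adjusted p = 7.8e-11) and 0.54 in WT (SE 0.07, adjusted p = 1.1e-06). Amotl1 (chromosome 9, 14541966 to 14645056) went the other way. It had 140.2, 141 and 144 CPM in mimetic, 159, 161 and 173 in deficient, 135, 126 and 128 in WT, and 189, 193 and 179 in vector. Every Zeb1 library was below every vector library. Amotl1 fell by 0.40 (SE 0.05) in mimetic, by 0.19 (SE 0.05) in deficient and by 0.53 (SE 0.05) in WT on the log2 scale (adjusted p = 2.1e-07, 0.0014 and 2.8e-09). The Amotl2 count per Amotl1 count was 0.761 ± 0.034 in mimetic, 0.733 ± 0.054 in deficient, 0.652 ± 0.040 in WT and 0.311 ± 0.023 in vector (SD, n = 3 each). Against vector the exact permutation p was 0.1 in each Zeb1 line, the smallest possible, and 0.126 after adjustment over 24 ratio tests.

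Yap1 and Wwtr1, the coactivators, were the steadiest of the 9 genes, with 1.14-fold and 1.16-fold between the highest and lowest line. By size, their changes against vector ranked from the 1.88th percentile of all tested genes (Yap1 in deficient) to the 41.8th (Wwtr1 in deficient). Yap1 (chromosome 9, 7931999 to 8004596) was at 99.8 to 104 CPM in mimetic, 98.2 to 98.8 in deficient, 110.4 to 115 in WT and 94.0 to 106 in vector. Only the WT libraries were all above vector, with a log2 fold change of 0.18 (SE 0.05, adjusted p = 0.0022), and the values in mimetic and deficient against vector were 0.04 (SE 0.05, adjusted p = 0.5) and -0.0094 (SE 0.05, adjusted p = 0.88). The deficient value turned to 0.035 with scaling by library size only, to 0.040 without vector replicate 2 and to 0.014 after keeping only genes with 5 CPM or more in 3 libraries, and was called in none (0) of these. The mimetic value was called with scaling by library size only (0.11, adjusted p = 0.046). Wwtr1, which encodes TAZ (chromosome 3, 57455649 to 57575910), was at 269.8 to 273 CPM in mimetic, 279.9 to 287 in deficient, 264 to 271 in WT and 242 to 248 in vector. It rose in all 3 Zeb1 lines by a small amount, with log2 fold changes of 0.14, 0.21 and 0.13 (SE 0.04 each, adjusted p = 0.0019, 4.2e-05 and 0.0039) in mimetic, deficient and WT. The Wwtr1 count per Yap1 count was 2.66 ± 0.044 in mimetic, 2.89 ± 0.030 in deficient, 2.39 ± 0.059 in WT and 2.48 ± 0.12 in vector (SD, n = 3 each). Against vector the exact permutation p was 0.1 in mimetic and deficient (0.126 adjusted) and 0.4 in WT (0.436 adjusted).

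Tead1 (chromosome 7, 112679318 to 112906807), the DNA-binding factor, was lowest in deficient. It had 46.5, 45.2 and 59.0 CPM in mimetic, 30.9, 31.9 and 35.0 in deficient, 48.1, 49.0 and 45.7 in WT, and 76.9, 85.5 and 39.7 in vector. The deficient libraries lay below all others, whereas vector replicate 3 lay below every mimetic and WT library. The log2 fold change against vector was -1.04 in deficient (SE 0.17, adjusted p = 3.1e-05), -0.42 in mimetic (SE 0.17, adjusted p = 0.04) and -0.50 in WT (SE 0.17, adjusted p = 0.015). Without vector replicate 3 these were -1.32, -0.69 and -0.77 (adjusted p = 1.2e-11, 2.9e-07 and 4.4e-08). Without vector replicate 2 they were -0.83, -0.21 and -0.29 (adjusted p = 0.00016, 0.28 and 0.13), and without vector replicate 1 -0.94, -0.31 and -0.39 (adjusted p = 0.00046, 0.18 and 0.086). The call in mimetic was also lost without mimetic replicate 1 (adjusted p = 0.12) or 2 (0.15). The mimetic call was lost as well with DESeq2 (adjusted p = 0.14), limma-voom (0.14), library size only (0.091), genes of 5 CPM or more in 3 libraries (0.058), the 2 lines alone (0.07) and a replicate block (0.063). The WT call was lost as well with DESeq2 (0.078) and limma-voom (0.066). The calls in mimetic and WT thus depended on the test and on which libraries were kept, while the fall in deficient was called under all 20 alternatives.

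Among 8860 genes of at least 10 CPM, 21 had a level in vector replicate 3 under 0.6 of the lower of vector replicates 1 and 2, and Tead1 was 1 of them at 0.516. None (0) of the other members was. The mitochondrially encoded share of counts was 0.998% and 0.986% in vector replicates 1 and 2 and 0.814% in vector replicate 3.

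None of the other tested TEAD genes moved like Tead1. Tead2 and Tead3 rose, and Tead4 fell in mimetic and WT but was not called in deficient, where Tead1 was lowest. Of the 7 listed TEAD and vestigial-like cofactor genes 4 were tested, and Vgll1, Vgll2 and Vgll3 are not analysed here. Tead3 was at 14.1 ± 1.4 CPM in mimetic, 14.9 ± 2.7 in deficient, 13.7 ± 0.91 in WT and 7.54 ± 0.70 in vector, and rose in all 3 lines (log2 fold changes of 0.90, 0.98 and 0.86, SE 0.13, 0.12 and 0.13). Tead2 was at 159 ± 7.0, 133 ± 5.2, 171 ± 10 and 119.6 ± 4.8 CPM in the same order and rose in all 3 (0.41, 0.15 and 0.52). Tead4 fell by 0.40 in mimetic and by 0.20 in WT, and was not called in deficient (-0.10, adjusted p = 0.15). Vgll4, a cofactor that competes with YAP for TEADs, was called higher in deficient and WT (0.23 and 0.15) and not in mimetic (-0.01, adjusted p = 0.86).

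The LATS kinases, which inhibit YAP and TAZ, were higher in every Zeb1 line. Lats2 (chromosome 14, 57689662 to 57758388) had 54.8, 52.8 and 54.4 CPM in mimetic, 46.1, 46.5 and 52.4 in deficient, 44.8, 46.4 and 47.9 in WT, and 33.5, 36.8 and 32.5 in vector. No Zeb1 library overlapped vector, and the log2 fold changes were 0.66, 0.50 and 0.44 (SE 0.06 each, adjusted p = 2.8e-08, 1.5e-06 and 6.3e-06) in mimetic, deficient and WT. The gene model Gm49361 overlaps Lats2 on the same strand and covers its 3' end, so Lats2 counts are uncertain to the extent that counting split reads between them. Lats1 (chromosome 10, 7681214 to 7716460) was at 96.4 to 99.4 CPM in mimetic, 90.7 to 98.6 in deficient, 88.4 to 89.3 in WT and 69.0 to 84.1 in vector. Its log2 fold changes were smaller, at 0.35, 0.29 and 0.21 (SE 0.06 each, adjusted p = 2.6e-05, 0.00027 and 0.0032).

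**Figure D3:**
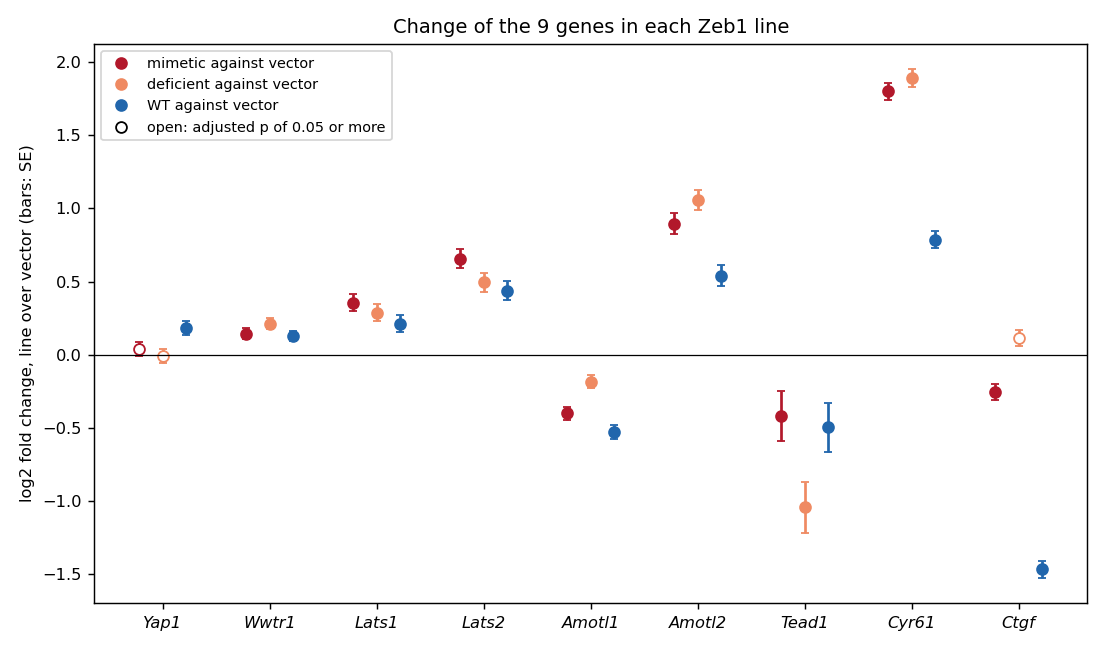
The log2 fold change of each gene against vector is plotted for the mimetic, deficient and WT lines with its SE, open where the adjusted p was 0.05 or more. Ctgf is the gene whose lines lie farthest apart, from -1.47 in WT to 0.11 in deficient, and Cyr61 reaches 1.80 and 1.89 in the mutants.

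The mutant lines were also set against WT. In mimetic against WT 6 of 9 members were called, 5 higher and 1 lower, beside 44.9% of all tested genes (23.1% higher and 21.8% lower), and 51.5% of all calls were higher, which became 63.9% with scaling by library size only. In deficient against WT 6 of 9 were called, 4 higher and 2 lower, beside 53.8% (27.5% higher and 26.3% lower). Of all calls there, 51.2% were higher, which became 56.3% with scaling by library size only. Called changes of at least 2-fold numbered 2 of 9 in each, those of Cyr61 and Ctgf, beside 5.61% of all tested genes in mimetic against WT and 8.78% in deficient against WT. Ctgf was 2.32-fold higher in mimetic and 2.99-fold higher in deficient than in WT (log2 fold changes of 1.21 and 1.58, SE 0.06 each, adjusted p = 1.1e-12 and 6.2e-15). Cyr61 was 2.02-fold and 2.15-fold higher (1.01 and 1.10, SE 0.06 each, adjusted p = 1.9e-11 and 1.9e-12). Amotl2 was 1.28-fold and 1.43-fold higher (0.36 and 0.52, SE 0.07 each). Amotl1 was 0.34 higher in deficient (SE 0.05, adjusted p = 2.6e-06) and 0.13 higher in mimetic (SE 0.05, adjusted p = 0.027), and the mimetic call was lost without mimetic replicate 2 or 3 or without WT replicate 2 or 3 (adjusted p = 0.054, 0.083, 0.13 and 0.1). Yap1 was lower than in WT, by -0.14 in mimetic (adjusted p = 0.02) and -0.19 in deficient (adjusted p = 0.0021), and the mimetic call was lost with scaling by library size only (adjusted p = 0.15), without mimetic replicate 1 (0.069) or without WT replicate 2 (0.068). Lats1 was 0.14 higher in mimetic (SE 0.06, adjusted p = 0.054) and was called without vector replicate 2 (0.028), vector replicate 3 (0.016) or deficient replicate 3 (0.047), and with library size only (0.011), genes of 5 CPM or more in 3 libraries (0.031), the 2 lines alone (0.0078) and a replicate block (0.041). Wwtr1 was 0.08 higher in deficient (SE 0.04, adjusted p = 0.058) and was called without vector replicate 3 (0.045), and with limma-voom (0.046), library size only (0.013) and genes of 5 CPM or more in 3 libraries (0.013). Lats2 was 0.22 higher in mimetic (adjusted p = 0.0082), and Tead1 was 0.55 lower in deficient than in WT (SE 0.18, adjusted p = 0.013; 0.0504 with DESeq2).

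Between the mutants, 3 of 9 members were called, 1 higher and 2 lower in mimetic, beside 27.4% of all tested genes (12.6% higher and 14.9% lower), and 45.8% of all calls were higher, which became 56.8% with scaling by library size only. Ctgf was 1.29-fold lower in mimetic than in deficient (log2 fold change -0.37, SE 0.05, adjusted p = 3.3e-05) and Amotl1 1.16-fold lower (-0.21, SE 0.05, adjusted p = 0.0014). Tead1 was 1.54-fold higher in mimetic (0.62, SE 0.18, adjusted p = 0.011), and without mimetic replicate 3 the value was 0.49 (adjusted p = 0.07). No called change reached 2-fold (0 of 9), beside 2.63% of all tested genes. The other 6 were not called, with log2 fold changes from -0.16 for Amotl2 (adjusted p = 0.09) to 0.16 for Lats2 (adjusted p = 0.068). Amotl2 was called lower without deficient replicate 1 (-0.21, adjusted p = 0.041) and with a replicate block (adjusted p = 0.036), and Lats2 was called higher without deficient replicate 3 (0.22, adjusted p = 0.016), without vector replicate 3 (adjusted p = 0.046) and with scaling by library size only (adjusted p = 0.031).

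Ordered by level, Cyr61 and Amotl2 both ran deficient, mimetic, WT, vector, and the neighbours not told apart were deficient and mimetic (adjusted p = 0.24 and 0.09). Lats1 and Lats2 ran mimetic, deficient, WT, vector, with only the step between WT and vector called. Ctgf ran deficient, vector, mimetic, WT, with deficient and vector not told apart. Amotl1 ran vector, deficient, mimetic, WT, with every step called. Tead1 ran vector, mimetic, WT, deficient, with mimetic and WT not told apart. Wwtr1 ran deficient, mimetic, WT, vector, with only the step between WT and vector called, and Yap1 ran WT, mimetic, vector, deficient, with only the step between WT and mimetic called. The called steps of Tead1, and those between mimetic and WT for Amotl1 and Yap1, were lost under some alternatives. The uncalled steps of Ctgf and Amotl2, and that between mimetic and deficient for Lats2, were called under some. The highest line exceeded the lowest 3.71-fold for Cyr61, 2.99-fold for Ctgf, 2.08-fold for Amotl2, 2.07-fold for Tead1, 1.58-fold for Lats2, 1.44-fold for Amotl1, 1.28-fold for Lats1, 1.16-fold for Wwtr1 and 1.14-fold for Yap1.

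A list of 18 other genes described as YAP and TAZ targets in human cancers was read beside the members, of which 16 were tested and Fjx1 and Ccdc80 are not analysed here. Against vector 7 rose and 7 fell in mimetic, 7 rose and 5 fell in deficient, and 6 rose and 8 fell in WT, with medians of 0.17, 0.09 and -0.26 on the log2 scale. Against WT, 7 rose and 2 fell in mimetic and 10 rose and 2 fell in deficient (medians 0.09 and 0.36), and in mimetic against deficient 2 rose and 5 fell (median -0.07). Against vector, 28.6% of all tested genes were called higher and 30.9% lower in mimetic, and 28.4% and 29.8% in deficient. In WT against vector these shares were 31% and 33.6%. Against WT they were 23.1% and 21.8% in mimetic and 27.5% and 26.3% in deficient. In mimetic against deficient they were 12.6% and 14.9%. Medians over all tested genes ran from -0.013 to 0.0085 in the 6 comparisons. The coagulation receptor F3 (tissue factor) was at 74.9 ± 5.4 CPM in mimetic, 94.8 ± 4.3 in deficient, 35.6 ± 1.6 in WT and 94.8 ± 1.0 in vector. Its level was low in WT, as that of Ctgf was, with a log2 fold change against vector of -1.41 (SE 0.06), and 0.00043 in deficient (SE 0.05, adjusted p = 0.99).

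The cardiac ankyrin repeat protein gene Ankrd1 was at 114 ± 6.7 CPM in mimetic, 200.1 ± 7.2 in deficient, 106 ± 1.5 in WT and 74.9 ± 2.4 in vector, and rose in all 3 (log2 fold changes of 0.61, 1.42 and 0.50, SE 0.05 each). The stress gene Gadd45a rose likewise, at 33.6 ± 4.1 CPM in mimetic, 55.6 ± 2.6 in deficient and 33.9 ± 0.53 in WT, against 24.1 ± 1.3 in vector. Both were lower in mimetic than in deficient (-0.81 and -0.72, adjusted p = 1.1e-10 and 2.9e-07). Igfbp3, which binds insulin-like growth factors, rose to 360.3 ± 17 CPM in mimetic, 314 ± 1.5 in deficient and 321 ± 10 in WT, against 178 ± 3.0 in vector. Crim1 rose in all 3 (0.51, 0.61 and 0.70) and Asap1, an ARF GTPase-activating protein, fell in all 3 (-0.78, -0.91 and -0.72). The receptor tyrosine kinase Axl rose in WT (0.52, SE 0.04) and slightly in mimetic (0.12, adjusted p = 0.023), and had -0.10 in deficient (adjusted p = 0.067).

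**Figure D4:**
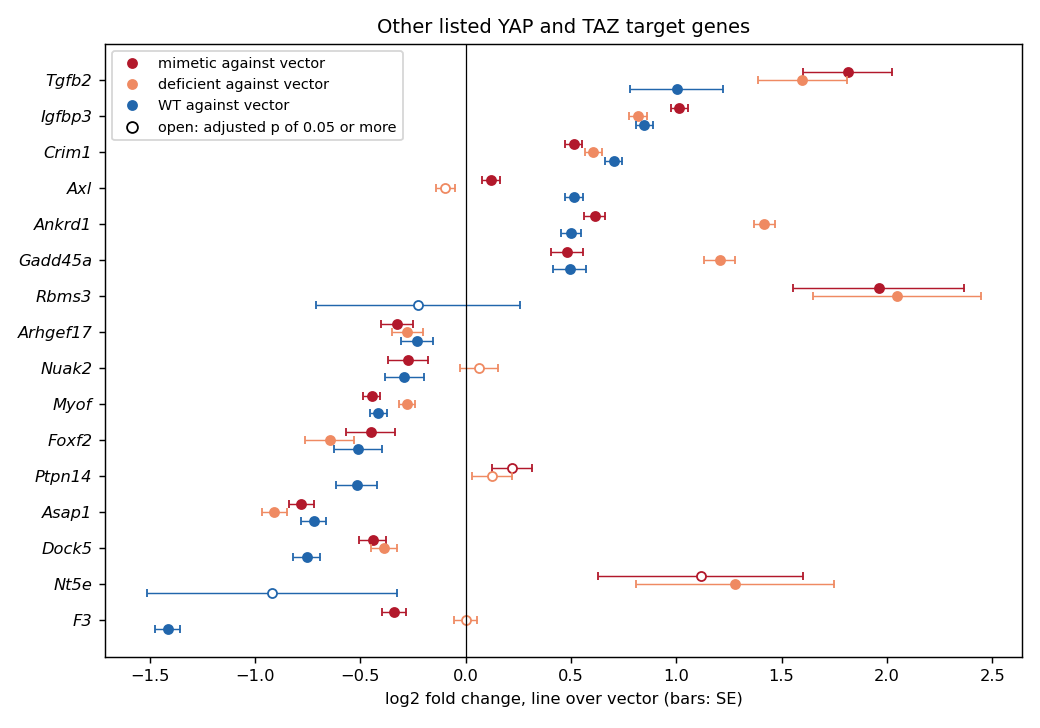
The log2 fold change against vector of the 16 other listed target genes is plotted for the mimetic, deficient and WT lines with its SE, open where the adjusted p was 0.05 or more, ordered by the value in WT. F3 stands at the low end with -1.41 in WT and -0.34 in mimetic, while Tgfb2, Igfbp3, Crim1, Ankrd1 and Gadd45a lie above 0 in every line.

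By the root mean square difference between log2 CPM profiles over the 12 libraries, each centred on its own mean, F3 was the closest to Ctgf of all non-member genes of at least 10 CPM, at 0.103. Depdc7 followed at 0.117 and the tubulin polyglutamylase gene Ttll7 at 0.157. Ttll7 was at 77.2 CPM in mimetic, 99.2 in deficient, 42.7 in WT and 100.3 in vector.

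Of 21 upstream Hippo genes (kinases, scaffolds and their regulators) 19 were tested, and Tnik and Dchs1 are not analysed here. Against vector 4 rose and 11 fell in mimetic, 5 rose and 7 fell in deficient, and 5 rose and 9 fell in WT, with medians of -0.12, -0.04 and -0.07. Over all tested genes 59.5%, 58.2% and 64.6% were called, and the medians were -0.0044, 0.0041 and -0.013. Called changes of at least 2-fold numbered 0 of 19 in each of the 6 comparisons. Over all tested genes these shares ran from 2.63% in mimetic against deficient to 12.4% in WT against vector. With 19 genes, a count of 0 is not far from these shares and is not read as a trait of the list. The scaffold Sav1, which binds the MST kinases, was at 158 ± 3.3 CPM in mimetic, 144 ± 5.3 in deficient, 193 ± 1.6 in WT and 141 ± 4.7 in vector. The FERM protein gene Frmd6 was at 81.1 ± 1.8, 103 ± 9.1, 103 ± 1.8 and 70.9 ± 5.0 CPM in the same order and rose in all 3 Zeb1 lines. The kinase Map4k2 fell in all 3, with log2 fold changes of -0.83, -0.33 and -0.80 in mimetic, deficient and WT. Map4k4, which can phosphorylate LATS, fell in mimetic and WT (-0.22 and -0.33) and not in deficient (0.02, adjusted p = 0.68). Wwc1 (KIBRA), an activator of LATS, fell in mimetic and WT (-0.18 and -0.11) and rose in deficient (0.14).

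Adaptors and binding partners also went both ways. Of 12 tested against vector, 3 rose and 3 fell in mimetic, 3 rose and 6 fell in deficient, and 7 rose and 4 fell in WT. These were 6, 9 and 11 calls, beside 59.5%, 58.2% and 64.6% of all tested genes. The LIM protein gene Ajuba, whose product binds and inhibits LATS, was at 121 ± 1.9 CPM in mimetic, 152 ± 6.9 in deficient, 83.1 ± 0.93 in WT and 73.5 ± 3.4 in vector. It rose in all 3 lines (log2 fold changes of 0.72, 1.05 and 0.18, SE 0.05 each), with both mutants above WT. The related Wtip had 70, 61 and 85 counts in mimetic, 39, 69 and 53 in deficient, 3, 11 and 1 in WT, and 129, 116 and 128 in vector. WT was far below the other lines (log2 fold change -4.45 against vector, SE 0.38, adjusted p = 2.4e-09), from few counts. Rassf1, a scaffold of the MST kinases, rose in all 3 (0.41, 0.76 and 0.56). The casein kinase genes Csnk1d and Csnk1e, whose products mark YAP for degradation, went opposite ways, with -0.23, -0.22 and -0.24 for Csnk1d and 0.14, 0.36 and 0.19 for Csnk1e, all called. The 14-3-3 gene Ywhab, whose product retains phosphorylated YAP in the cytoplasm, fell in deficient (-0.16), rose in WT (0.16) and was not called in mimetic (0.08, adjusted p = 0.16).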

How the data were processed

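The authors deposited unnormalised counts, with a row per gene and a column per library, from QuantSeq 3' mRNA-Seq forward libraries sequenced paired-end, per the labels' protocols. The submitters' processing notes name STAR and the mm10 build. The aligner's version, how counts were assigned, whether strand was used, and the gene models are details not given in the sources used here. Every listed gene has at least 1 count in all 12 libraries, so genes with a 0 anywhere are not analysed here. Column names matched the sample titles.

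The test was edgeR's quasi-likelihood test (edgeR 4.0.16, R 4.3.3). The filter filterByExpr removed 181 genes, TMM factors were applied, all 12 libraries entered 1 fit with the 4 lines as groups, and p-values were adjusted by Benjamini-Hochberg over 12027 genes. Each SE was computed as the absolute log2 fold change over the square root of its F statistic. Ratios were compared by exact permutation of libraries, two-sided. Alternatives were DESeq2 1.42.0, limma-voom (limma 3.58.1), RLE factors, library size only, no filter, keeping genes with 5 CPM or more in 3 libraries, a fit per pair of lines, a replicate block, and leaving out each library. Recounts of the pathway lists without vector or deficient replicate 3 were chosen after seeing the data. Scripts were tested on simulated data. Coordinates are GENCODE M21 (GRCm38). Members and lists were chosen with earlier results of these data known. All 9 members are described. Of each list, all genes are named where up to 8 were tested, and otherwise the 4 smallest adjusted p in mimetic against deficient and in WT against vector; for Cyr61, Ctgf and Amotl2 the 3 most similar genes of at least 10 CPM are named. One adaptor gene that this rule names is not reported here.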

Additional observations from a re-analysis of the deposited data

How the results depend on the processing

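Of the 54 member results (9 genes in 6 comparisons), 39 were called, and 33 of these kept direction and call under all 20 alternatives, 12 of which left out 1 library each. The other 6 calls, lost under at least 1 alternative, were 4 of Tead1 and those of Yap1 and Amotl1 in mimetic against WT; the cause was not tested. Counts of called members and of all called genes stayed within 1.5 times under every alternative. Leaving out 1 library gave 7 to 8 called members in mimetic against vector, 7 to 8 in deficient against vector, 8 to 9 in WT against vector, 2 to 4 in mimetic against deficient, 4 to 7 in mimetic against WT and 6 to 7 in deficient against WT. Direction turned for results that were not called: Yap1 in deficient against vector (0.035 with library size only, 0.014 with 5 CPM or more in 3 libraries, -0.046 to 0.040 leaving out 1 library), Lats2 in deficient against WT (-0.0017 to 0.090), Tead1 in mimetic against WT (-0.057 to 0.15) and Wwtr1 in mimetic against WT (-0.0051 to 0.017). Replicate numbers did not pair the libraries: 1 of 18 same-numbered pairs correlated over 0.1 in their deviations, and 4 of 12 libraries correlated best with their own number. The replicate block changed 4 of the 54 calls (Ctgf in deficient against vector, adjusted p = 0.032; Tead1 in mimetic against vector, 0.063; Amotl2 in mimetic against deficient, 0.036; Lats1 in mimetic against WT, 0.041) and called 7250, 7080, 7852, 3378, 5514 and 6573 genes in mimetic, deficient and WT against vector, mimetic against deficient, mimetic against WT and deficient against WT. Of 60 list counts without vector or deficient replicate 3, 59 were within 1.5 times.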

Other observations

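Cyr61 and Ctgf are also known as targets of serum response factor and its MRTF cofactors, and 12 genes of that programme were read beside them, of which 8 were tested. Against vector 1 rose and 3 fell in mimetic, 4 rose and 3 fell in deficient, and 4 rose and 3 fell in WT. Over all tested genes 59.5%, 58.2% and 64.6% were called in these comparisons. Against WT none (0) rose and 6 fell in mimetic, and 1 rose and 5 fell in deficient, beside 21.8% and 26.3% of all tested genes called lower. Tropomyosin (Tpm1) rose in all 3 lines (log2 fold changes of 0.41, 0.50 and 0.61 in mimetic, deficient and WT) and gamma-actin (Actg1) fell in all 3 (-0.87, -0.73 and -0.62), as did vinculin (Vcl; -0.23, -0.22 and -0.22) and Fhl2 (-0.73, -0.20 and -0.55). The calponin gene Cnn2 and Srf itself rose in deficient (0.32 and 0.21) and WT (0.45 and 0.35) and were not called in mimetic (0.04 and 0.05, adjusted p = 0.46 and 0.45). Beta-actin (Actb) was 0.04, 0.10 and 0.22, called in deficient and WT, and Acta2, at under 1 CPM on average in every line, was called in none (0). In mimetic against deficient 0 rose and 3 fell, a count of calls that became 5 without vector replicate 3.

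The 3 genes whose centred profiles lay closest to Cyr61 were Sgce (epsilon-sarcoglycan, root mean square difference 0.19), Serpinb9 (0.218) and Bmp7 (0.224). Bmp7, a secreted BMP ligand, was at 39.6 CPM in mimetic, 54.7 in deficient, 21.9 in WT and 9.92 in vector. Closest to Amotl2 were Zfp13 (0.0956), the procollagen protease gene Bmp1 (0.103) and the lipoprotein receptor gene Scarb1 (0.112). Bmp1 was at 71.8 CPM in mimetic, 79.9 in deficient, 53.5 in WT and 40.5 in vector.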
